A study of Mus musculus with 29 samples.

Results

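The effect of the heterozygous 5A3 deletion was measured in CD150lo hematopoietic stem cells (CD150lo HSC), using all 10 CD150lo HSC libraries of the 29 RNA-Seq libraries of the series: 5 from 5A3+/del mice, labelled WT/DEL, and 5 from WT mice, labelled WT/WT. The 5A3+/del mice carry on 1 copy of chromosome 5 a germ line deletion of band 5A3, the mouse counterpart of a stretch of human band 7q22 that is often lost in myeloid malignancies. It was made with Cre in embryonic stem cells between loxP sites at Fbxl13 and Srpk2 (chr5:20989665-23182266 in mm9, from the outer end of 1 gene to that of the other), so it is present in every cell of the mouse, and the mice were bred onto C57BL/6J for 10 or more generations. All mice were labelled C57BL/6J, were 12.42 to 13.85 weeks old and received no treatment. Each library is 1 mouse, and the same mice gave the libraries of the other populations. The exception is 5A3+/del replicate 5, which has no library of CD150neg cells, so that population has 9 libraries. The cells were sorted as c-kit+, lineage-, Sca-1+, CD41- and CD48- cells with low CD150, and 10 ng of total RNA was amplified before library preparation. Of the 15409 genes tested, the 12 of the deleted interval and the 96 of oxidative phosphorylation were fitted but are not described, which leaves 15301 genes.

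CD150 (Slamf1) is a surface receptor by which mouse stem cells are graded. Cells with high CD150 renew most and lean to the myeloid and platelet lineages, CD150lo HSC make lymphoid cells more readily, and CD150neg multipotent progenitors (MPP) have little capacity to renew. HSC in adult marrow are mostly quiescent, keep protein synthesis low, and depend on Kit and Tie receptors for signals from their niche. Cytosolic ribosomes are built from ribosomal RNA and a set of ribosomal proteins whose genes also have many processed copies scattered over the genome, whereas mitochondrial ribosomes have their own set of proteins encoded in the nucleus.

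The 10 libraries held 23007381 to 38797569 fragments, with a median of 26329739, of which mitochondrial ribosomal RNA took 25.55% to 31.86%. Expression is given as FPKM, fragment counts divided by the exon length of a gene and by the depth of its library. The labels were checked on the deleted interval: all 11 tested genes between Fbxl13 and Srpk2 had a lower mean in 5A3+/del, 8 of them without overlap between the groups, and the median ratio of the group means was 0.531. HSC markers were well measured, with Kit at 111 to 203 FPKM, Hlf at 185 to 278 and Meis1 at 51.6 to 69.4 over the 10 libraries. Slamf1, which encodes the receptor that sets the gate, was at 0.18 to 2.64 FPKM. Transcripts of Ms4a1, Cd3e, Cd8a, Ly6g, Col1a1, Cxcl12 and Lepr, which mark B cells, T cells, granulocytes and stroma, were below the expression filter. Over the 10 libraries Cd79a of B cells, at 0 to 1.56 FPKM, and Cd4 of T cells, at 0.62 to 4.89, passed it. Cdh5 of endothelium at 0.00999 to 1.49 and Pf4 of megakaryocytes at 15.5 to 37.5 passed too. So did the genes of the excluded markers CD48 and CD41, Cd48 at 1.04 to 6.51 and Itga2b at 0.836 to 3.02. S100a8 and S100a9, abundant in granulocytes, were measured, and WT replicate 1 stood apart with 737 and 469 FPKM against 6.30 to 171 and 4.96 to 135 in the other 9 libraries. WT replicate 3 had an Xist FPKM of 234, against at most 0.405 in the other libraries, and a Ddx3y FPKM of 0.0687, against 16.8 to 24. The labels used here give no sex. By Xist and Ddx3y, WT replicate 3 read as female and the other 9 libraries as male, so the groups were not balanced for sex. WT replicate 5 sat at the 5A3+/del level for the ribosomal genes, so results that turn on it are also given without it. Pearson's r between libraries over genes was 0.932 to 0.963 for the 20 pairs of the same genotype and 0.926 to 0.970 for the 25 pairs of different genotype, so genotype did not order the libraries as a whole.

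In CD150lo HSC 1 of 15301 genes (0.00654%), Evc2, passed the adjusted threshold of 0.05 in limma. An unadjusted p under 0.05 was reached by 424 genes higher in 5A3+/del (2.77%) and by 600 genes lower (3.92%); these are called nominally higher and nominally lower below. All 5 libraries of 5A3+/del lay above all 5 WT libraries for 115 genes (0.752%) and below them for 122 genes (0.797%). The median log2 fold change over all genes was 0.01. Values are normalized FPKM unless stated, those of single libraries are given in the order of replicates 1 to 5, and fold changes are differences of log2(FPKM + 1), which understate the change of weakly expressed genes.

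Evc2 rose in 5A3+/del CD150lo HSC. Evc2 and its neighbour Evc encode the EvC complex at the base of the primary cilium, through which Smoothened passes the hedgehog signal to Gli factors. Evc2 lies on chromosome 5 in mm9 (chr5:37729717-37816294, plus strand), 14.5 Mb distal of the interval, and is transcribed away from Evc (chr5:37680337-37728133, minus strand), with 1583 bases between the 2 starts. The normalized FPKM of Evc2 was 0.10, 0.121, 0.410, 0.426 and 0.0247 in WT. In 5A3+/del it was 2.05, 0.881, 0.992, 1.41 and 1.23. The lowest 5A3+/del library was above the highest WT library, and the fragments behind these values were 11 to 95 in WT and 136 to 275 in 5A3+/del. The means were 0.216 ± 0.188 and 1.31 ± 0.459 (SD, n = 5 each), a log2 fold change of 0.92 ± 0.14 (SE; limma adjusted p = 0.00352); with a pseudocount of 0.1 in place of 1 it was 2.42 (adjusted p = 0.00291). The transcript was scarce in both groups. The call was lost when only the 10 CD150lo libraries were fitted (limma adjusted p = 0.224), and also with a replicate block added to that fit (adjusted p = 0.57).

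**Figure D1:**
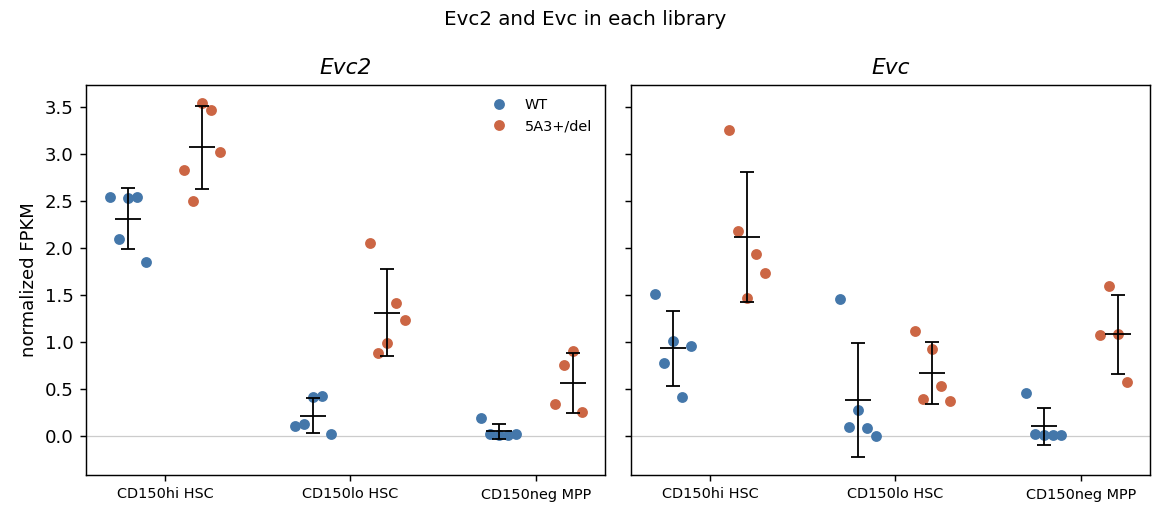
Normalized FPKM of Evc2 and Evc (vertical axes) in every WT and 5A3+/del library of the 3 populations; points are libraries, horizontal bars means and whiskers SD. In CD150lo HSC the 5A3+/del libraries of Evc2 begin at 0.881 and the WT libraries end at 0.426, whereas for Evc the WT library at 1.46 lies above every 5A3+/del library.

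Evc did not separate the groups in CD150lo HSC. Its normalized FPKM was 1.46, 0.0984, 0.271, 0.0834 and 0.00178 in WT and 1.12, 0.394, 0.923, 0.535 and 0.375 in 5A3+/del, with a log2 fold change of 0.34 (adjusted p = 0.864). WT replicate 1 was the highest of the 10 libraries, and the other 4 WT libraries were below all 5A3+/del libraries. In CD150hi HSC and MPP of the same mice the log2 differences were 0.69 and 0.91 for Evc (adjusted p = 0.151 and 0.337) and 0.30 and 0.56 for Evc2 (adjusted p = 0.359 and 0.527). The Evc2 difference was greater in CD150lo than in CD150hi HSC by 0.62 (limma on differences within the mouse, unadjusted p = 0.00731, adjusted p = 0.999) and than in MPP by 0.37 (unadjusted p = 0.208), so neither passed adjustment. Of the 12 tested hedgehog genes, 1 was nominally higher, Evc2 itself, and 0 were lower, with a median log2 fold change of 0.06 (0.01 without WT replicate 2).

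Of the 37 gene lists, cytosolic ribosomal proteins held the most nominal calls, all of them lower, but none of the genes passed the adjusted test. Of 79 ribosomal protein genes, 66 had a log2 fold change below 0, and their median was -0.14 over all 79. Nominally lower were 22 (27.8%) and nominally higher 0, against 3.92% and 2.77% of all genes. Wholly below WT lay 6 of the 79, against 0.797% of all genes. The mean log2 value of the 79 genes was 8.17, 8.14, 8.08, 8.19 and 7.97 in WT, and 7.97, 7.97, 7.98, 7.96 and 7.99 in 5A3+/del. The 5A3+/del libraries were nearly alike and WT replicate 5 was among them, whereas the other 4 WT libraries were higher. Without WT replicate 5 the median was -0.18, 30 genes were nominally lower and 0 higher, against 5.06% and 3.8% of all genes in that fit, and 3 passed the adjusted threshold. In bulk RNA, fewer ribosomal transcripts per cell and a different mix of cells cannot be told apart.

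Rpl26, a protein of the large subunit, was at 272, 279, 255, 268 and 206 in WT and 218, 192, 206, 202 and 194 in 5A3+/del (log2 fold change -0.33; limma adjusted p = 0.201). Rps13, of the small subunit, was at 336, 321, 316, 341 and 262 in WT and 246, 242, 253, 251 and 262 in 5A3+/del (-0.32; adjusted p = 0.201). In both genes WT replicate 5 was the lowest WT library and lay within the range of 5A3+/del. Rpl35 at -0.33, Rpl27a at -0.31, Rps2 at -0.29, Rpl7 at -0.28 and Rps18 at -0.27 followed, and at the other end Rpl29 had a log2 fold change of 0.17 and Rpl4 of 0.13, neither of them nominal.

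Ribosomal protein messages usually begin with a cytosine followed by a run of pyrimidines, the 5' terminal oligopyrimidine motif through which mTOR controls their translation. The starts of the nominally lower genes with the lowest p that have an entry in RefSeq are shown to let their letters be compared. Each line gives 15 bases before and 15 bases after the annotated start in the build GRCm38.p6, on the strand of the gene, with capitals for a run of at least 6 bases of C or T that begins with C within 10 bases of the start.
Rpl26 (chr11:68901551-68901580, plus strand): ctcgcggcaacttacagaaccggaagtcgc
Rps13 (chr7:116334176-116334205, minus strand): gagagcaaacgtcggtgagtggcgtcactt
Rpl35 (chr2:39005117-39005146, minus strand): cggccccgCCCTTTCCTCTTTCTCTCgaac
Rpl27a (chr7:109519180-109519209, plus strand): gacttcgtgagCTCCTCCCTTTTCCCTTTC
Rps2 (chr17:24720048-24720077, plus strand): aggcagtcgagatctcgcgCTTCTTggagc
Rpl5 (chr5:107900513-107900542, plus strand): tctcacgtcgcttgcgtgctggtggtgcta
Rpl35, Rpl27a and Rps2 held such a run, and Rpl26, Rps13 and Rpl5 held none in this window. Of the 57 ribosomal protein genes with a RefSeq promoter, 35 (61.4%) had a run, against 2500 of 8900 tested genes (28.1%). The median log2 fold change was -0.14 with a run and -0.16 without among ribosomal protein genes, and 0.02 with and without among all 8900 genes. Rpl7, Rpl8 and Rps14 were not among the promoters.

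Transcripts assigned to copies of ribosomal protein genes showed the same direction. Pseudogenes and predicted coding genes with at least 80% identity to a ribosomal protein transcript over at least 50% of their exonic bases were counted as copies. Of 494 such copies tested, 379 had a log2 fold change below 0, and the median was -0.22. Nominally lower were 172 (34.8%) and nominally higher 9 (1.82%), against 3.92% and 2.77% of all genes. Wholly below WT lay 36 of the copies, against 0.797% of all genes. The other 1325 pseudogenes and predicted genes compared had 71 nominally lower (5.36%), 39 nominally higher (2.94%) and a median of -0.02. Copies made up 172 of the 600 nominally lower genes (28.7%), and together with the 22 ribosomal protein genes 194 (32.3%), against 9 of the 424 nominally higher genes (2.12%). The mean log2 value of the copies was 3.66, 3.69, 3.70, 3.64 and 3.45 in WT and 3.42, 3.46, 3.46, 3.46 and 3.44 in 5A3+/del, with WT replicate 5 again within the range of 5A3+/del.

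Gm11361, a copy of Rps18 (chr13:28349496-28350006 in mm9), had the lowest p of the copies, and it was chosen after its values were seen. It was at 123, 122, 130, 121 and 89.7 normalized FPKM in WT and at 83.3, 82.7, 85.2, 82.3 and 82.0 in 5A3+/del. The groups did not overlap (117 ± 15.7 and 83.1 ± 1.27, SD, n = 5), and the log2 fold change was -0.48 ± 0.09 (SE; adjusted p = 0.0504). Its parent Rps18 was at 243, 232, 253, 233 and 184 in WT and at 183, 191, 190, 186 and 197 in 5A3+/del. WT replicate 5 was the lowest WT library of both, and for Rps18 it lay within the range of 5A3+/del. The sequences are close enough to share reads, as the same 60 bases of each show, read from mm9 with capitals at the base that differs.
Rps18, coding bases 141 to 200: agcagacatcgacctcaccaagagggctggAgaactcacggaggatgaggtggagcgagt
Gm11361 (chr13:28349645-28349704, plus strand): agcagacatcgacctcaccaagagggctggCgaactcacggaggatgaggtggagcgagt
Over 459 aligned bases the sequences differed at 3. Copy and parent did not always go together: Rps6-ps3, 98.5% identical to Rps6, was at 53.1, 53.3, 69.9, 59.0 and 40.0 in WT and 35.9, 37.0, 37.3, 36.3 and 37.5 in 5A3+/del (log2 fold change -0.55; adjusted p = 0.0507), whereas Rps6 itself had a log2 fold change of 0.06. Gm13680 and Gm9294, both copies of Rps4x, were at -0.64 and -0.90, and Rps4x at -0.22. Since reads can be shared, a value of a copy or of its parent is uncertain.

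Genes with little exonic sequence also leaned to the lower side, and the copies of ribosomal protein genes overlap with them. The median exon length of the copies was 479 bases, so most of them belong to the shortest class below. Over 5 classes of exon length, from 28 to 1024 bases up to 5476 to 31152 bases, the median log2 fold change was -0.07, -0.02, 0.01, 0.04 and 0.04. Among the 3009 genes of the shortest class 305 were nominally lower (10.1%) and 83 higher (2.76%). Among the 3006 of the longest 24 were lower (0.798%) and 80 higher (2.66%). Over all genes 3.92% were lower and 2.77% higher, so the classes differed on the lower side. When the trend with exon length was removed from each library, an alternative added after the data were seen, the ribosomal protein genes had a median of -0.09 with 15 nominally lower, and the copies a median of -0.12 with 97 lower and 25 higher, against 480 (3.14%) and 436 (2.85%) of all genes. The trend was estimated with the ribosomal protein genes and the copies included, so its removal can also take away part of their own difference. The part of exon length in the ribosomal difference beyond this adjustment was not tested. With median scaling in place of quantile normalization the median of the ribosomal protein genes was -0.30, while that of all genes was 0.00.

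**Figure D2:**
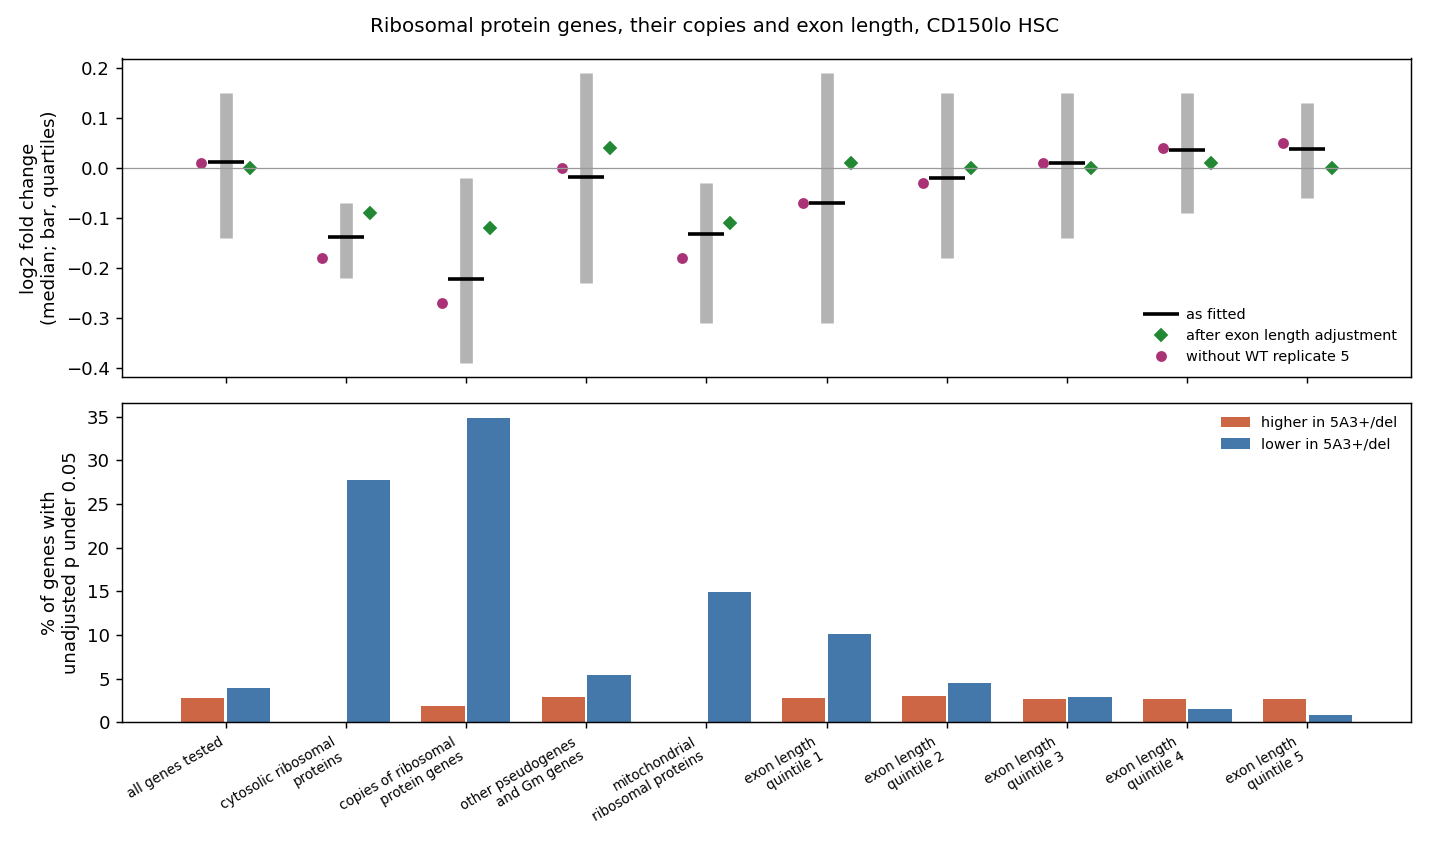
Upper panel, median log2 fold change (5A3+/del minus WT) of gene classes in CD150lo HSC with quartiles as grey bars, the median after exon length adjustment as diamonds and the median without WT replicate 5 as circles; lower panel, percent of genes of the class that were nominally higher or lower. Copies of ribosomal protein genes have the lowest median, -0.22, and the difference shrinks to -0.12 after the adjustment; the 5 exon length classes run from -0.07 to 0.04.

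The ribosomal difference was also compared in the other populations of the same mice. In CD150hi HSC 34 of the 79 ribosomal protein genes were nominally lower and 0 higher, with a median of -0.18, against 1018 (6.65%) and 965 (6.31%) of all genes, and 154 of the copies were lower and 12 higher. In MPP 1 ribosomal protein gene was nominally lower, with a median of -0.03, against 296 of all genes (1.93%), and 7 copies were lower and 16 higher, against 349 of all genes on the higher side (2.28%). The difference between the genotype effects in CD150lo HSC and MPP was nominally below 0 for 109 copies and above 0 for 4, with a median of -0.26, against 591 (3.86%) and 462 (3.02%) of all genes; for the ribosomal protein genes it was below 0 for 3 of 79, with a median of -0.11. Between CD150lo and CD150hi HSC the counts were 7 and 4 for the copies and 0 and 0 for the ribosomal protein genes, against 306 (2%) and 323 (2.11%) of all genes. No gene passed the adjusted threshold for a difference between CD150lo HSC and either population in limma: the count was 0 of 15301, with 629 (4.11%) at an unadjusted p under 0.05 against CD150hi HSC and 1053 (6.88%) against MPP.

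Proteins of the mitochondrial ribosome, which translates the few messages of the mitochondrial genome, had a similar median. Of 74 genes, 58 had a log2 fold change below 0, with a median of -0.13. Nominally lower were 11 (14.9%, against 3.92% of all genes) and nominally higher 0. Mrpl45 was at 6.68, 6.96, 6.20, 10.1 and 4.60 in WT and at 3.11, 3.40, 4.46, 4.65 and 4.45 in 5A3+/del (log2 fold change -0.63; adjusted p = 0.271). All but 1 of its WT libraries, replicate 5, lay above 5A3+/del. Mrps28 at -0.53, Mrpl28 at -0.56 and Mrpl23 at -0.50 were the next by p, and Mrpl23 did not overlap between the groups. The mean of the list was 3.64, 3.58, 3.52, 3.56 and 3.40 in WT and 3.37, 3.31, 3.36, 3.46 and 3.41 in 5A3+/del, so WT replicate 5 again overlapped with 5A3+/del. Its difference from the effect in MPP had a median of -0.18. That difference was nominally below 0 for 9 of 74 genes and above 0 for 1, against 3.86% and 3.02% of all genes.

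Import and shape of mitochondria gave the only list of 37 (2.7%) with all 5 of its 5A3+/del means below all 5 WT means. The mean of its 49 genes was 3.81, 3.83, 3.75, 3.75 and 3.69 in WT and 3.62, 3.62, 3.64, 3.68 and 3.67 in 5A3+/del, with WT replicate 5 closest to 5A3+/del. Of these genes 35 had a log2 fold change below 0, and the median was -0.11. Nominally lower were 3 (6.12%, against 3.92% of all genes) and nominally higher 0. Hspe1, the co-chaperonin of the mitochondrial matrix, was at 115, 102, 111, 90.2 and 77.5 in WT and at 70.3, 65.1, 62.6, 56.9 and 81.0 in 5A3+/del (log2 fold change -0.55; adjusted p = 0.252). Tomm20, a receptor of the outer membrane import channel, had a log2 fold change of -0.35, and Timm13, a small chaperone between the membranes, of -0.58. Genes of ribosome biogenesis had 30 of 48 below 0 and a median of -0.08 (-0.04 without WT replicate 4). Nominally higher were 0 of them and nominally lower 3, or 6.25%, near the 3.92% of all genes. Those 3, Gar1 at -0.52, Nhp2 at -0.58 and Nop10 at -0.31, encode proteins of the H/ACA particle that guides pseudouridylation of ribosomal RNA.

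Translation factors had calls in both directions. Of 48 genes 3 were nominally higher (6.25%) and 2 lower (4.17%), against 2.77% and 3.92% of all genes. The median was 0.01, or -0.05 under median scaling. Eif3e, a subunit of initiation factor 3, was at 197, 167, 181, 178 and 243 in WT and at 295, 305, 272, 272 and 272 in 5A3+/del, without overlap (log2 fold change 0.56; adjusted p = 0.271). Eif5a, which helps ribosomes over difficult stretches such as prolines, was at 0.34, and Eef1b2, an exchange factor of elongation factor 1, at -0.28, each without overlap. Proteasome genes had 2 nominally higher and 1 lower of 47, with a median of -0.05.

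**Figure D3:**
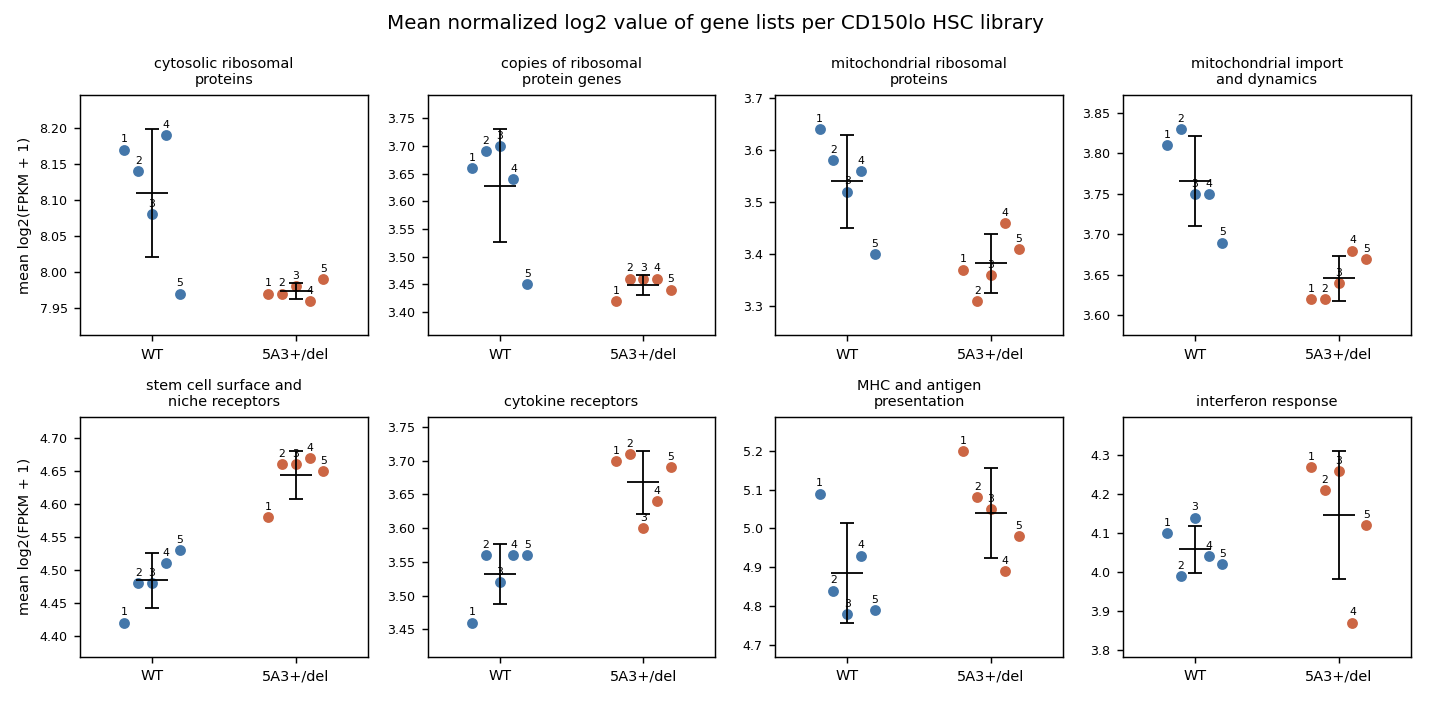
Mean normalized log2(FPKM + 1) of 8 gene lists (vertical axes, each with its own range that does not start at 0) in the 10 CD150lo HSC libraries; numbers are replicates, horizontal bars means and whiskers SD. WT replicate 5 lies with 5A3+/del for cytosolic ribosomal proteins (7.97) and their copies (3.45), and 5A3+/del is above WT in every library for stem cell surface receptors (4.58 and above against 4.53 and below) and cytokine receptors (3.60 and above against 3.56 and below).

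Receptors by which HSC sense their niche had a higher mean in 5A3+/del. The mean of the 30 genes for stem cell surface and niche receptors was 4.42, 4.48, 4.48, 4.51 and 4.53 in WT and 4.58, 4.66, 4.66, 4.67 and 4.65 in 5A3+/del. That of 34 cytokine receptor genes was 3.46, 3.56, 3.52, 3.56 and 3.56 in WT and 3.70, 3.71, 3.60, 3.64 and 3.69 in 5A3+/del. These were the 2 of 37 lists (5.41%) whose mean was higher in every 5A3+/del library, and they share members such as Kit and Tek. In each list 5 genes were nominally higher (16.7% and 14.7%, against 2.77% of all genes) and 0 lower. The medians were 0.15 and 0.16, and no gene of either list passed the adjusted threshold. In CD150hi HSC of the same mice the medians were 0.25 and 0.13. Nominally higher there were 7 and 4 genes, against 6.31% of all genes, and lower 1 and 0, against 6.65%. In MPP the medians were 0.13 and 0.08, with 2 and 3 genes higher, against 2.28% of all genes, and 0 lower.

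Ly6a, which encodes Sca-1, a marker used in the sort, was at 136, 121, 126, 173 and 125 in WT and at 229, 188, 215, 201 and 163 in 5A3+/del. The highest WT library overlapped with the lowest 5A3+/del library, and the log2 fold change was 0.55 ± 0.18 (SE; adjusted p = 0.346). Kit, the stem cell factor receptor and also a marker of the sort, was at 133, 130, 111, 163 and 162 in WT and at 170, 208, 165, 170 and 154 in 5A3+/del (log2 fold change 0.32; adjusted p = 0.663). WT replicates 4 and 5 lay within the range of 5A3+/del for Kit. Tie1, a partner of the angiopoietin receptor Tek, had a log2 fold change of 0.40, and Il12rb1, a shared chain of the interleukin 12 and 23 receptors, of 0.68. Il17ra was at 0.32. With the exon length trend removed 3 genes of each list were nominally higher, and the medians were 0.14 and 0.14. Slamf1 itself had a log2 fold change of -0.46 (unadjusted p = 0.0336, adjusted p = 0.663) on 15 to 281 fragments per library. Whether the gate placed cells of the 2 genotypes alike was not tested.

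Ifitm3, an interferon-induced membrane protein that blocks the fusion of enveloped viruses, had the lowest p of the separated protein-coding genes after Evc2. Ifitm3 (chr7:148195485-148196669 in mm9, minus strand) was at 544, 557, 492, 581 and 617 in WT and at 889, 812, 781, 746 and 847 in 5A3+/del. Every 5A3+/del library was above every WT library (558 ± 46.3 and 815 ± 56.0, SD, n = 5), and the log2 fold change of 0.55 ± 0.11 (SE) came close to the threshold (adjusted p = 0.0504). In CD150hi HSC the log2 fold change of Ifitm3 was 0.47 (adjusted p = 0.0519) and in MPP 0.15; the difference between CD150lo HSC and MPP was 0.38 (unadjusted p = 0.0376, adjusted p = 0.697). Its relative Ifitm2 had a log2 fold change of 0.40. Ly6e, a Ly6 family surface protein induced by interferon and not on the list, was at 288, 266, 231, 282 and 264 in WT and at 421, 421, 351, 392 and 368 in 5A3+/del, without overlap (0.55; adjusted p = 0.146). The list of 52 interferon genes as a whole had a median of 0.10. Of its genes 4 were nominally higher (7.69%, against 2.77% of all genes) and 1 lower (1.92%, against 3.92%), Irf1 at -0.28. The mean of the list overlapped, at 3.99 to 4.14 in WT and 3.87 to 4.27 in 5A3+/del. It was lowest in 5A3+/del replicate 4, and without that library the median was 0.18. In CD150hi HSC the median of the list was 0.19, with 10 genes nominally higher, against 6.31% of all genes, and 0 lower. In MPP the median was 0.08, with 4 genes higher, against 2.28% of all genes, and 0 lower.

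Genes of antigen presentation had 3 of 27 nominally higher (11.1%, against 2.77% of all genes) and 0 lower. Their median was 0.11 (0.18 without WT replicate 1 and 0.05 with median scaling). H2-Oa, which modulates peptide loading of class II molecules, was at 7.13, 9.64, 7.80, 9.17 and 7.57 in WT and at 11.9, 14.6, 11.1, 13.1 and 9.91 in 5A3+/del, without overlap (log2 fold change 0.50; adjusted p = 0.386). H2-Aa, a class II chain, was at 0.47 with WT replicate 1 among the 5A3+/del libraries. Marker genes of other cells were checked beside these lists. The mean of 10 tested lineage gate markers was 2.00 to 2.54 in WT and 1.95 to 2.66 in 5A3+/del, and that of 6 stromal and endothelial markers 1.19 to 1.83 and 1.31 to 1.86. Before normalization Itgam was at 4.07 to 8.88 FPKM in WT and 6.77 to 13.6 in 5A3+/del (log2 fold change 0.51, limma adjusted p = 0.811). Normalized FPKM of Hba-a1 overlapped, at 0.00949 to 1.39 in WT and 1.17 to 2.34 in 5A3+/del. Its fragments per library were 0 to 23 in WT and 26 to 43 in 5A3+/del. The part of such cells in the higher lists was not tested beyond these values.

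Of the 12 separated protein-coding genes with the lowest p on the higher side, chosen from 85 without overlap and with a mean of at least 2 normalized FPKM in the higher group, Ifitm3, Hnrnph3 and Tgfbi led. Hnrnph3, an RNA-binding splicing regulator, was at 1.97, 2.02, 1.84, 2.02 and 3.89 in WT and 7.10, 3.90, 4.68, 3.96 and 4.05 in 5A3+/del (log2 fold change 0.78; adjusted p = 0.0738). WT replicate 5 lay just below the lowest 5A3+/del library, far from the other 4 WT libraries, and without it the log2 fold change was 0.93 (adjusted p = 0.00384). Tgfbi, an extracellular matrix protein induced by TGF-beta, was at 9.88, 5.61, 7.22, 8.13 and 6.51 in WT and 11.4, 20.3, 14.3, 12.8 and 16.2 in 5A3+/del (0.91; adjusted p = 0.1). In CD150hi HSC of the same mice the log2 fold change of Tgfbi was 0.01, and in MPP it was 0.93 (adjusted p = 0.218); the difference between CD150lo and CD150hi HSC was 0.90 (unadjusted p = 0.0131, adjusted p = 0.999). Pfn1, profilin 1, which feeds actin monomers to growing filaments, was at 277, 235, 205, 249 and 270 in WT and 349, 329, 288, 363 and 344 in 5A3+/del (0.44; adjusted p = 0.187). The others were Cxx1c at 0.93, Stx16, a SNARE protein of the trans-Golgi, at 0.49, Gm10359 at 0.38, Sh3bgrl3 at 0.59, C030046I01Rik at 0.42, Arhgef10, an exchange factor of small GTPases, at 0.52 and Ubap2l at 0.36.

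On the lower side, 12 genes were taken from 72 by the same rule. Sstr2, which that rule did not take, had a log2 fold change of -1.06 (limma adjusted p = 0.0504), and it was named after its values were seen. Fam108a was at 16.2, 16.6, 12.9, 20.4 and 14.1 in WT and at 9.22, 8.33, 9.75, 8.84 and 11.7 in 5A3+/del (log2 fold change -0.68; adjusted p = 0.0779). In CD150hi HSC its log2 fold change was -0.12 and in MPP 0.03, and the difference between CD150lo HSC and MPP was -0.78 (unadjusted p = 0.00165, adjusted p = 0.667). Hist1h2ak, a replication-dependent histone H2A gene, was at 26.1, 24.3, 23.4, 13.9 and 13.0 in WT and 5.38, 12.1, 11.1, 9.45 and 11.3 in 5A3+/del (-0.95; adjusted p = 0.116). The same gene passed the adjusted threshold in CD150hi HSC at -1.06 (adjusted p = 0.0412). Copies of ribosomal protein genes were among the 12: Gm10268 at -0.57 and Rpl17-ps3 at -0.34, both copies of Rpl17, and Gm10063, a copy of Rps12, at -0.55. Ddx4, the Vasa RNA helicase of germ cells, was at 7.78, 4.58, 4.64, 4.63 and 3.88 in WT and at 3.27, 1.86, 2.53, 2.21 and 3.33 in 5A3+/del (-0.73; adjusted p = 0.218). Myl10, a myosin light chain on chromosome 5, was at 12.5, 29, 47.6, 9.65 and 9.75 in WT and 3.20, 5.89, 5.04, 2.10 and 5.19 in 5A3+/del (-1.88; adjusted p = 0.235). Both groups of Myl10 were widely spread, and its log2 fold change in CD150hi HSC was -2.16 (adjusted p = 0.0776). Ufc1, the conjugating enzyme of UFM1, was at -0.64, Eapp, which binds E2F factors, at -0.68, Pdcd7 at -0.50 and Sep15, a selenoprotein of the endoplasmic reticulum, at -0.36.

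**Figure D4:**
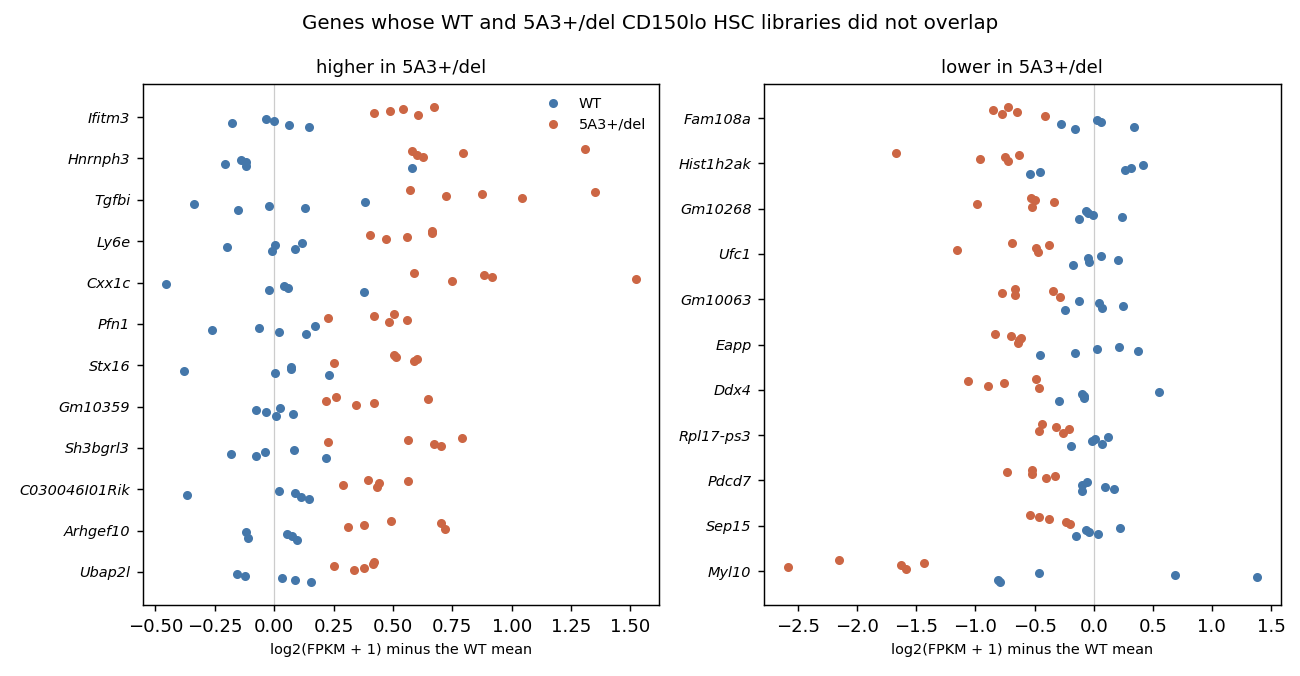
Normalized log2(FPKM + 1) of each CD150lo HSC library minus the WT mean of the gene (horizontal axes) for the 12 higher and 11 of the 12 lower protein-coding genes taken among those without overlap; each point is 1 library. Hnrnph3 has 1 WT library, replicate 5 at 3.89 normalized FPKM, beside the lowest 5A3+/del library at 3.90, and Myl10 has the widest spread, with log2 fold change -1.88.

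Genes that set stem cell identity were mixed. Of 29 stem cell transcription factor genes 1 was nominally higher (3.45%) and 3 lower (10.3%), against 2.77% and 3.92% of all genes. Their median was 0.06. Bmi1, a Polycomb protein needed for self-renewal, was at 21.4, 20.5, 21.9, 14.6 and 17.4 in WT and at 16.1, 16.0, 14.3, 11.6 and 13.4 in 5A3+/del (log2 fold change -0.39; adjusted p = 0.312). Gfi1b, a transcriptional repressor required for erythroid and megakaryocyte development, was at 9.94, 12.2, 11.5, 10.4 and 11.2 in WT and at 6.48, 4.00, 9.77, 5.17 and 8.43 in 5A3+/del, without overlap (-0.69; adjusted p = 0.569). Foxo3, which keeps HSC quiescent, was at 40.0, 36.3, 35.5, 42.4 and 45.5 in WT and at 49.5, 44.3, 48.4, 48.7 and 49.8 in 5A3+/del (0.27; adjusted p = 0.423), and Hoxa10 was at -0.45. Plek, a platelet protein kinase C substrate, had 40.3, 26.4, 43.1, 48.0 and 44.7 in WT and 23.6, 23.6, 27.3, 26.0 and 24.2 in 5A3+/del (-0.65; adjusted p = 0.271), on a megakaryocyte list with 1 gene nominally higher and 1 lower of 23. Lymphoid priming genes, 27 tested, had 0 nominally higher and 0 lower, with a median of 0.06.

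Cell cycle genes did not separate the groups. Of 46 genes of G2 and mitosis 36 had a log2 fold change above 0, with a median of 0.11 (0.03 without WT replicate 4 and 0.19 without WT replicate 5), but 0 were nominally higher or lower, and the means ran from 2.32 to 2.80 in WT and from 2.34 to 2.84 in 5A3+/del. Of 59 genes of G1 and S phase 4 were nominally higher (6.78%, against 2.77% of all genes) and 0 lower, with a median of 0.09. Tyms, thymidylate synthase, was at 5.89, 5.00, 5.32, 4.91 and 6.14 in WT and at 8.42, 8.11, 6.78, 6.91 and 7.24 in 5A3+/del. The groups did not overlap for Tyms (log2 fold change 0.40, limma adjusted p = 0.45). The G1 and S list had a median of 0.01 without 5A3+/del replicate 4.

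Metabolic lists outside oxidative phosphorylation were set beside the 2.77% of all genes nominally higher and the 3.92% lower. Glycolysis and pentose phosphate genes had 4 of 37 nominally higher (10.8%), 0 lower and a median of 0.07: Hk3, a hexokinase, at 0.60 and G6pdx, the first enzyme of the pentose phosphate path, at 0.46 did not overlap, and Pkm2 and Gapdh were at 0.25 and 0.19. Of 40 genes of the citrate cycle and fatty acid oxidation 2 were higher and 0 lower, Cpt1a, which admits fatty acids to mitochondria, at 0.41 and Acadvl at 0.50. Antioxidant genes were split, with 5 of 43 higher and 5 lower (11.6% each); Prdx2, a peroxiredoxin, was at -0.35 and Gstm1 at 0.40. Actin cytoskeleton genes had 6 of 44 higher and 2 lower, with Wasf2 and Was, which activate the Arp2/3 complex, at 0.29 and 0.35 and Arpc3, a subunit of that complex, at -0.54; in CD150hi HSC Arpc3 was at -0.79 (adjusted p = 0.0258). Immediate early genes had a median of -0.12 (-0.26 without WT replicate 4 and -0.05 without WT replicate 2), with 31 of 40 below 0, 2 nominally lower and 0 higher, and their mean varied from 3.74 to 4.58 among WT libraries and from 3.90 to 4.19 in 5A3+/del.

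**Figure D5:**
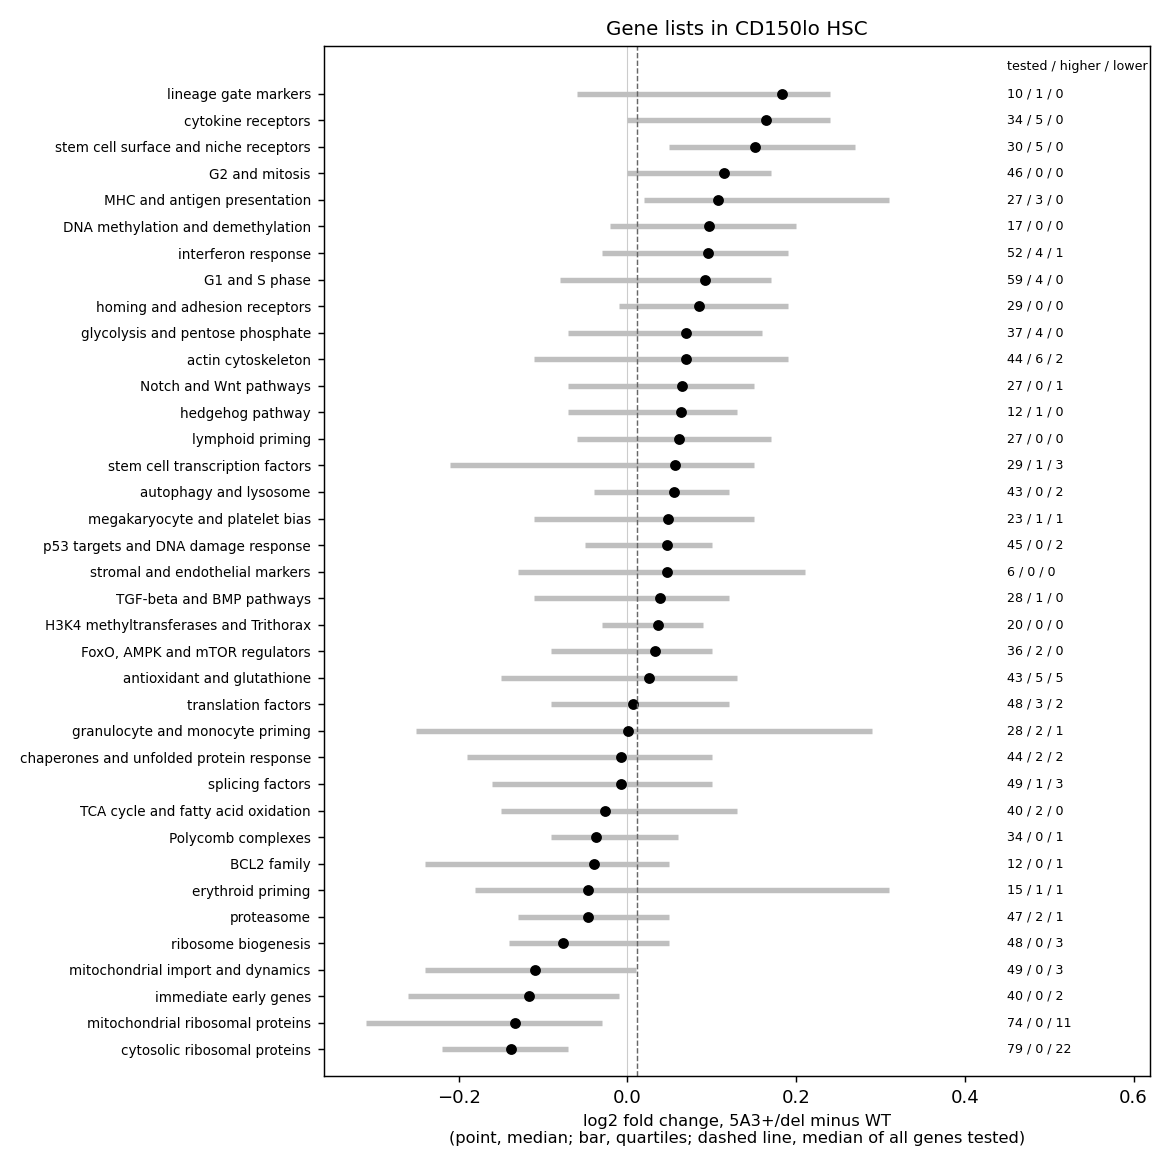
Median log2 fold change (horizontal axis, 5A3+/del minus WT) of the 37 gene lists in CD150lo HSC, with quartiles as grey bars and, at the right, the number of genes tested, nominally higher and nominally lower; the dashed line is the median of all genes tested. Cytosolic and mitochondrial ribosomal proteins are lowest, at -0.14 and -0.13, with 22 and 11 genes lower, and cytokine receptors (0.16) and stem cell surface receptors (0.15) are near the top.

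The remaining lists had at most 3 nominal calls in a direction, set beside 2.77% of all genes nominally higher and 3.92% lower. There were 0 higher and 0 lower for H3K4 methyltransferases, DNA methylation, homing receptors and stromal markers, 0 and 1 for Polycomb, Notch and Wnt, and BCL2 family genes, 0 and 2 for p53 targets and for autophagy, 1 and 0 for TGF-beta and BMP genes, 2 and 0 for FoxO, AMPK and mTOR regulators, 2 and 2 for chaperones, 1 and 3 for splicing factors, 2 and 1 for granulocyte and monocyte priming, 1 and 1 for erythroid priming, and 1 and 0 for lineage gate markers, where the gene was Hba-a1. Another globin gene, Hbb-b2, was nominally lower (means of 45.6 in WT and 25.1 in 5A3+/del, log2 fold change -0.87; adjusted p = 0.663), and the erythroid median was -0.05. Bbc3, the p53 target Puma, was at 3.02, 2.28, 3.09, 1.64 and 1.32 in WT and 0.72, 1.02, 1.21, 1.91 and 0.592 in 5A3+/del (log2 fold change -0.64; adjusted p = 0.544). By gene type, pseudogenes had 172 of 1254 nominally lower and 38 higher, protein-coding genes 378 of 12157 lower and 316 higher, long intergenic RNAs 15 of 602 lower and 28 higher, and antisense RNAs 9 of 451 lower and 18 higher; strand was not stated for the counting, so an antisense gene and its partner cannot be told apart.

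The share of genes called near the deletion was set beside that of all genes. Within 5 Mb of the interval 2 of 51 genes were nominally higher and 2 lower (7.84%), within 20 Mb 4 and 6 of 218 (4.59%), and on the whole of chromosome 5 25 and 33 of 935 (6.2%), against 6.69% of all genes in either direction. Apart from Evc2, Myl10, Tyms, Arpc3 and Rpl5, the chromosome 5 genes with an unadjusted p under 0.01 included Paics, of purine synthesis, at 0.54 (chr5:77380332-77396534 in mm9), and Chchd2, a mitochondrial protein, at -0.43 (chr5:130357027-130363340).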

How the data were processed

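The authors converted 10 ng of total RNA per sorted population to amplified cDNA (Ovation V2), sequenced paired ends and deposited FPKM per gene for 29 libraries; the labels name mm9, Bowtie version 0.12.2 and HTSeq. FPKM are scaled to exon length and library size, and were not quantile normalized when deposited. Fragments were recovered from the steps of the low FPKM values, of which 98.6% to 98.91% per CD150lo library were whole; amplified fragments are not independent molecules, so such counts cover counting error only, with a floor of 3 fragments.

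Of 30025 genes, the 15409 that reached an FPKM of 1 in 4 or more libraries were transformed as log2(FPKM + 1) and quantile normalized. limma version 3.58.1 (R version 4.3.3) was fitted to the 29 libraries with 6 group means, two-sided, with Benjamini-Hochberg adjustment over 15409 genes. Differences between populations were fitted per mouse, on 10 mice for CD150hi HSC and on 9 for MPP. The members and gene lists were chosen with earlier results of these data known. Genes named are those past the adjusted threshold, 12 higher and 12 lower separated protein-coding genes, up to 4 of lowest p per list, Evc, Evc2, and chromosome 5 genes with p under 0.01; copies, Slamf1 and other list members were named after their values were seen, and a few genes that these rules name are not reported here. Gene positions come from the GENCODE annotation of mm9 (97.52% of identifiers matched), through which 25 symbols stored as dates, Sep15 among them, were looked up. Copies were found with blastn version 2.17.0. On simulated data limma called 128 of 200 genes changed by a log2 value of 1 among 15409, together with 11 unchanged genes. It called 0 genes in the same simulated data before the changes were added. The simulated noise was independent between genes and between libraries, unlike shifts that many genes of 1 library share. Each replicate is a separate mouse. Alternatives covered pseudocount, filter, normalization, design, age, exon length and leaving out each library.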

Additional observations from a re-analysis of the deposited data

Results flagged for a closer look

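Of 126 groups of 5 libraries, 10 held a library whose gap to its nearest neighbour exceeded Dixon's critical value; chance gives about 1 in 20. Among list means, the stem cell surface and niche receptors of 5A3+/del replicate 1 were at 4.58 on the log2 scale (the others 4.65 to 4.67), granulocyte and monocyte priming of WT replicate 1 was at 4.15 (3.05 to 3.35), Polycomb complexes of WT replicate 2 were at 3.45 (3.50 to 3.52) and splicing factors of 5A3+/del replicate 1 were at 5.02 (5.05 to 5.06). Among genes, in normalized FPKM, Hnrnph3 was at 3.89 in WT replicate 5 (the others 1.84 to 2.02) and at 7.10 in 5A3+/del replicate 1 (3.90 to 4.68). Cxx1c was at 18 in 5A3+/del replicate 4 (8.94 to 11.5), C030046I01Rik at 44.6 in WT replicate 3 (58.6 to 64.1), Ddx4 at 7.78 in WT replicate 1 (3.88 to 4.64) and Evc at 1.46 in WT replicate 1 (0.00178 to 0.271).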

How the results depend on the processing

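The count of genes past the adjusted threshold, 1 as reported, was 4 with a pseudocount of 0.1, 17 of 23908 without the filter, 25 with a trend in the variance prior, 4 with mouse as a random effect, 2 with age as a covariate and 3 with the exon length trend removed, which was added after seeing the data. In limma it was 0 with the 10 CD150lo libraries only (1258 genes at an unadjusted p under 0.05). It was also 0 with a replicate block added to the fit of those 10 libraries (1188 genes). Leaving out each library gave 1 to 85, and the 85 came without WT replicate 5, of which 58 were ribosomal protein genes or their copies, 9 were higher and 76 lower (0.556% of genes tested). Evc2 kept its log2 fold change of 0.92 but not its call with the 10 libraries only (adjusted p = 0.224) and with the replicate block (adjusted p = 0.57); over the libraries left out it ranged from 0.81 to 0.99 with adjusted p of 0.00316 to 0.0218. With a pseudocount of 0.1 it was 2.42 (adjusted p = 0.00291). The count of genes differing from MPP was 1 without the filter. The cause of these changes was not tested. WT and 5A3+/del mice that share a number deviated together with correlations of -0.034 to 0.042, within the -0.073 to 0.09 of all pairs. The values thus showed no pairing by number, but they cannot tell whether such mice were littermates. Of 113 named genes over the alternatives, 2232 values kept direction and side of the threshold, 2 were weaker, 26 stronger and 0 reversed; of 39 list medians 757 values stayed within the spread and 23 moved. The medians of 8 lists, all between -0.05 and 0.05 as reported, changed sign under at least 1 alternative: megakaryocyte, erythroid, stromal, translation factor, chaperone, Polycomb, splicing factor and other pseudogene lists. Transcripts with few fragments, Evc2 in WT among them, limit what a fold change can show.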

Other observations

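Without WT replicate 5, genes outside the ribosomal lists that passed the adjusted threshold in limma included Arpc3 at -0.72 (adjusted p = 0.00352), a subunit of the Arp2/3 complex, Serinc3 at 0.60 (adjusted p = 0.00943), Lars2, the mitochondrial leucyl-tRNA synthetase, at 1.18 (adjusted p = 0.0205), Pdcd4, a repressor of translation, at 0.69 (adjusted p = 0.0225) and the splicing proteins Sf3b5 at -0.74 (adjusted p = 0.0343) and Snrpb at -0.58 (adjusted p = 0.0359). With all 10 libraries their log2 fold changes were -0.54, 0.47, 1.00, 0.55, -0.62 and -0.46, and 0 of these 6 genes passed. They were named after their values were seen. Leaving out this library is a choice made after seeing that it lay with 5A3+/del for the ribosomal genes, so these calls are not independent of that choice.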
